A study of Mus musculus with 4 samples.

Results

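Expression of the nuclear-encoded genes of the mitochondrial respiratory chain was compared between mouse liver tumors treated with sorafenib and with carrier. The genes were those whose symbol begins with Nduf, Uqcr, Cox4 to Cox8 or Atp5, together with Sdha, Sdhb, Sdhc, Sdhd, Cyc1 and Cycs. The symbols matched 98 of the 39179 listed genes, and 4 symbols marked as pseudogenes were dropped, which left 94. By role, 36 belong to complex I, 4 to complex II, 9 to complex III, 20 to complex IV, 16 to complex V and 1 is cytochrome c, and 8 are assembly factors whose symbols carry the same prefixes. Of the 94 genes, 88 had a level of at least 1 CPM (reads per 1000000 counted reads) in at least 2 libraries and were tested. The other 6 were Cox4i2, Cox6a2, Cox7b2, Cox8b, Cox8c and Atp5l.

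The respiratory chain sits in the inner mitochondrial membrane. Complexes I and II pass electrons from NADH and succinate to coenzyme Q, complex III passes them to cytochrome c, and complex IV passes them to oxygen. Complexes I, III and IV pump protons, and complex V, the ATP synthase, makes ATP from the returning protons. A few core subunits of complexes I, III, IV and V are made from the mitochondrial genome, and all other subunits are imported from the cytosol. Hepatocytes are rich in mitochondria.

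Both groups were tumors in wild-type C57BL/6 mice, genotype Myc/NrasG12V, raised by hydrodynamic injection of transposons that deliver Myc and the oncogenic Nras to hepatocytes. One group received carrier and the other sorafenib, an oral inhibitor of RAF kinases and of the VEGF and PDGF receptors, every second day for 3 weeks. Each group held 2 libraries of polyadenylated RNA from whole tumors, and neither the age of the mice nor pooling is given in the labels. In such bulk samples, fewer cells of a type and less RNA per cell cannot be told apart. Since no label ties the replicates to different mice, p-values measure the spread between libraries, which may be technical.

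The libraries held 4067427 to 5932939 reads, and 12005 to 13270 genes reached 1 CPM in each. Sorafenib replicate 2 stood apart from the other 3 libraries. Between the reads of replicates, chi-square divided by its degrees of freedom was 9.09 in carrier and 40.9 in sorafenib tumors. The summed level of 8 oncofetal tumor markers, Afp and Igf2 among them, was 38171 and 33101 CPM with carrier. It was 15215 CPM in the first sorafenib library and 93.2 CPM in the other, where Igf2bp3 was at 0. In both sorafenib libraries 6 of the 8 were below both carrier libraries, against 41.3% of all tested genes. The other 2, Epcam and Sox9, overlapped between the groups, with log2 fold changes, sorafenib over carrier, of 0.52 and 0.12. The label as liver tissue was checked with 12 hepatocyte markers, all of them detected. In both sorafenib libraries 6 of the 12 were above both carrier libraries, Cyp2e1, Tat and Ass1 among them, against 17.5% of all tested genes. Another 5, Alb, Apoa1, Fgb, Serpina1a and Serpina1b, were below both, against 41.3%. The median log2 fold change of the 12 markers, sorafenib over carrier, was 0.40. Their sum, 124399 to 156889 CPM, was lower in both sorafenib libraries, and Alb made up 71696 to 107514 CPM of it. The 8 endothelial markers summed to 234 and 274 CPM in carrier and to 189 and 85.2 CPM in sorafenib libraries, and the 8 macrophage markers to 228 and 249 against 118 and 57.9 CPM. The 8 stellate and fibroblast markers summed to 353 and 547 against 230.1 and 191 CPM. In both sorafenib libraries 6 of these 8 were below both carrier libraries, against 41.3% of all tested genes. Lrat was above both and Dcn overlapped, with log2 fold changes of 0.42 and 0.17. The 5 erythroid markers summed to 308 and 243 against 208 and 48.2 CPM, the 6 cholangiocyte markers to 472 and 672 against 521 and 106 CPM, and the 8 lymphocyte markers to 11.6 to 16.5 CPM. No endothelial, macrophage or stellate and fibroblast marker was at 0 in any library. The 5 striated muscle markers, relevant to the muscle isoforms of complex IV, summed to 1.23 to 1.72 CPM, with Ckm and Myh4 at 0 in all libraries. The part of these differences in the results below was not tested.

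Promoters of respiratory chain genes are known for sites of nuclear respiratory factor 1 (NRF1) and of the ETS factor GABPA. RefSeq windows on GRCm38.p6, 300 bases long with 250 bases before and 50 bases after the start, matched 74 of the 94 genes by symbol. The NRF1 motif GCGCANGCG was searched on both strands, as were all motifs here, and matches may overlap one another. It lay in the window of 23 of the 74 genes (31.1%), against 6.25% of all 32851 windows and 12.6% of the 12475 windows of tested genes. The ETS motif CCGGAAG lay in 17 of 74 (23.0%), against 8.86% and 16.5%. The YY1 motif AANATGGC also lay in 17 of 74 (23.0%), against 6.05% and 8.14%, and the motif of the estrogen-related receptors, AAGGTCA, in 8 of 74 (10.8%), against 4.72% and 3.55%. The GC-box GGGCGG of SP and KLF factors lay in 33 of 74 (44.6%), against 35.7% and 60.5%, and the E-box CACGTG, which MYC binds, in 5 of 74 (6.76%), against 7.15% and 9.70%. A match is a run of letters and does not show that a factor binds there.

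The 150 bases before the start are printed 5′ to 3′ for 8 genes described below, with matches to the NRF1 or ETS motif in capitals. The 8 were chosen after their values and motifs had been seen. They cover 1 gene of complex I, a catalytic and an anchor subunit of complex II, cytochrome c, 1 gene of complex IV, the peripheral stalk of complex V, and Atp5b and Cox7a2l, which were lower in sorafenib libraries.
Ndufa8: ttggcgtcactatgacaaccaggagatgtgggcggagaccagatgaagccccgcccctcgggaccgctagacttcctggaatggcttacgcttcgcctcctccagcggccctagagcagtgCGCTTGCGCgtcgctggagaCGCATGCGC
Sdha: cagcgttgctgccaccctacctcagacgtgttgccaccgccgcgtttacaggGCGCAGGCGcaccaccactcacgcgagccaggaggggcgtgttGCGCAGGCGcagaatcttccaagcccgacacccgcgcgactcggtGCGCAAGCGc
Sdhd: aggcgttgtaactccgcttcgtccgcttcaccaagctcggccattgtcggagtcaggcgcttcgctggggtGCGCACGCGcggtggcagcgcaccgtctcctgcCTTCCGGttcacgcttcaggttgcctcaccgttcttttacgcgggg
Cycs: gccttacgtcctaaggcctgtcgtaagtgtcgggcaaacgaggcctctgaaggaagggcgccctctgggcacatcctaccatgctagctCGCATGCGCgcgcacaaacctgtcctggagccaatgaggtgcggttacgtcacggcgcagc
Cox6a1: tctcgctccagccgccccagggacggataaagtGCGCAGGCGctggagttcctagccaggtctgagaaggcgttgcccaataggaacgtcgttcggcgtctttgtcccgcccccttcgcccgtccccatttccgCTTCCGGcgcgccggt
Atp5h: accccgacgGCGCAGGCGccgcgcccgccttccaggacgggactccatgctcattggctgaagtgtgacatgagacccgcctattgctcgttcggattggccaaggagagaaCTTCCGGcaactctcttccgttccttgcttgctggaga
Atp5b: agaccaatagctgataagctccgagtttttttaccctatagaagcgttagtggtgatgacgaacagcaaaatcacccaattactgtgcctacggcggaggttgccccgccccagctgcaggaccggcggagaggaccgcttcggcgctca
Cox7a2l: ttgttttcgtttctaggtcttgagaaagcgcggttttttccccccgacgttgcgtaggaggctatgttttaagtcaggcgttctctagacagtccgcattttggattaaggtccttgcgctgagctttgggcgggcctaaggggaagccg

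These stretches lie at chr2:36049339-36049488 for Ndufa8, chr13:74350241-74350390 for Sdha, chr9:50603850-50603999 for Sdhd, chr6:50566570-50566719 for Cycs, chr5:115348959-115349108 for Cox6a1, chr11:115419920-115420069 for Atp5h and chr17:83514334-83514483 for Cox7a2l, all on the minus strand, and at chr10:128083157-128083306 on the plus strand for Atp5b. The stretch of Sdha held 3 NRF1 matches and that of Ndufa8 held 2, and Sdhd, Cox6a1 and Atp5h each held 1 NRF1 and 1 ETS match. Neither motif was present in the stretches of Atp5b and Cox7a2l. The start is that of RefSeq, and the whole stretch of Cox7a2l lies inside the span of the gene in GENCODE M21, which begins further upstream, while 0 to 68 of the 150 bases of the others do. Sdhd held both motifs and did not separate the groups, as described below.

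Most respiratory chain genes had more of the library's messenger RNA in sorafenib than in carrier tumors. Their log2 fold change, the sorafenib mean of log2(CPM + 1) less the carrier mean, was above 0 for 72 of 88 genes and below 0 for 16, where 32.2% of all 13149 tested genes were above 0. Sorafenib values were both higher than both carrier values for 48 of the 88 genes (54.5%), against 17.5% of all tested genes, and below both for 10, against 41.3% of all tested genes. The median log2 fold change was 0.30 for the 88 genes, with a range of -0.79 to 0.89, and -0.26 for all tested genes. The summed level of the 94 genes was 11735 and 10959 CPM in carrier libraries and 12499.8 and 14299.7 CPM in sorafenib libraries, which is 1.17%, 1.10%, 1.25% and 1.43% of the reads.

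No single gene passed the test. limma, with Benjamini-Hochberg adjustment over all tested genes, called 0 of the 88 genes and 0 of 13149 (0.0%), with a smallest adjusted p of 0.24 among the 88 and 0.136 among all. At an unadjusted limma p below 0.05, 11 of the 88 genes were higher, against 6.36% of all tested genes, and 1 was lower, against 12.9%. The 11 were 7 genes of complex I, 1 of complex III and 3 of complex IV, and the lower gene was Cox7a2l. On the recovered reads, limma-voom and the quasi-likelihood test of edgeR also called 0 of 13149 genes, and 2543 and 2271 genes had an unadjusted p below 0.05. DESeq2 called 450 genes higher (3.42%) and 48 lower, and Ndufa3 was the only respiratory chain gene among them, with an adjusted p of 0.0414.

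The size of the difference depended on which sorafenib library was read. Against the carrier mean, the median log2 fold change of the 88 genes was 0.20 in sorafenib replicate 1 and 0.40 in sorafenib replicate 2. Over all tested genes these medians were -0.10 and -0.40, so both medians lay further from 0 in replicate 2, on opposite sides. Sorafenib replicate 2 was above replicate 1 for 71 of the 88 genes, against 31.8% of all tested genes. In both sorafenib libraries 62 of the 88 genes were above the carrier mean, against 3120 of all 13149 tested genes. Without sorafenib replicate 1 the fit rests on replicate 2 alone and gives its median for the 88 genes, 0.40. Without sorafenib replicate 2 it gives 0.20. With 1 library in the group its spread is not measured, so no gene is called from such a fit.

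Scaling factors moved all genes upward by a similar amount. With TMM factors the median of all tested genes was -0.04 and that of the 88 genes 0.54, so the gap between them was 0.58, compared with 0.56 without factors. With these factors the sorafenib values were both higher than the carrier values for 69 of the 88 genes, against 27.2% of all tested genes, and below both for 4, against 29.2%. The 4 were Atp5b, Atp5g2, Cox6b2 and Cox7a2l. Of these, Cox6b2 reached 1 CPM in the carrier libraries only. The filter therefore favored its place among the lower genes, here and without factors. The log2 fold change with TMM factors was above 0 for 81 of the 88 genes and 47.7% of all tested genes. Fold changes below are without factors unless TMM is named.

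**Figure D1:**
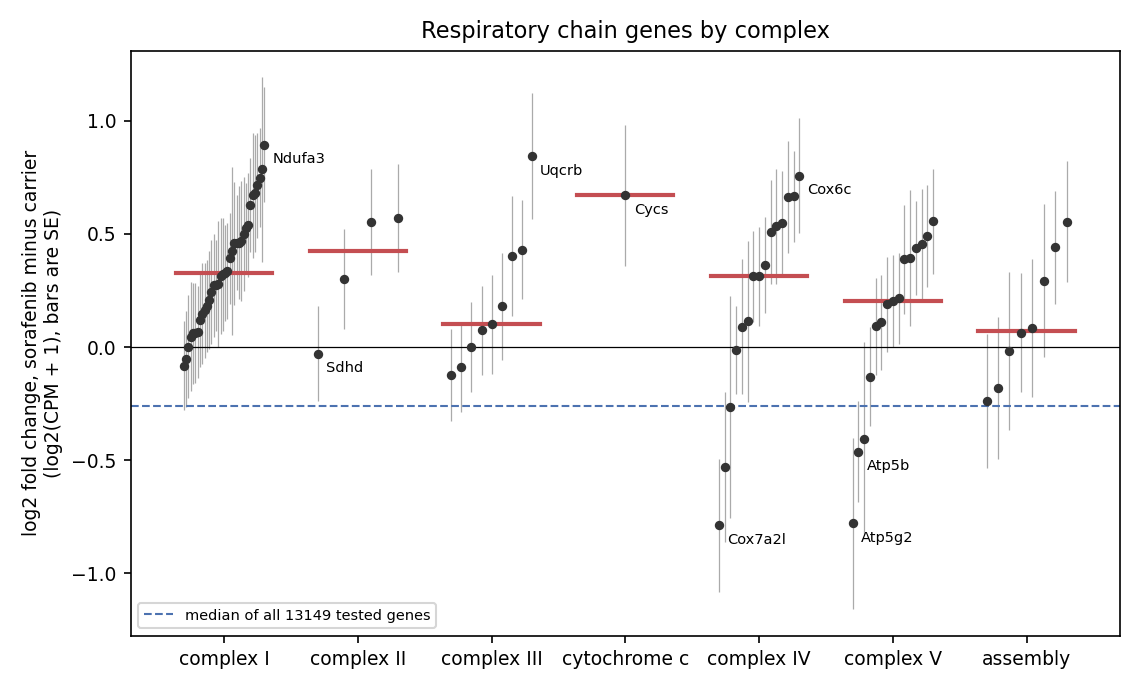
Log2 fold change of each tested respiratory chain gene, sorafenib minus carrier on log2(CPM + 1), by complex; points are genes, bars are the standard error from limma (2 libraries per group), red lines are medians and the dashed line is the median of all tested genes. Most points of each of complexes I, II, III, IV and V lie above 0, and Cox7a2l, Atp5g2 and Atp5b lie lowest among the labelled genes.

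**Figure D2:**
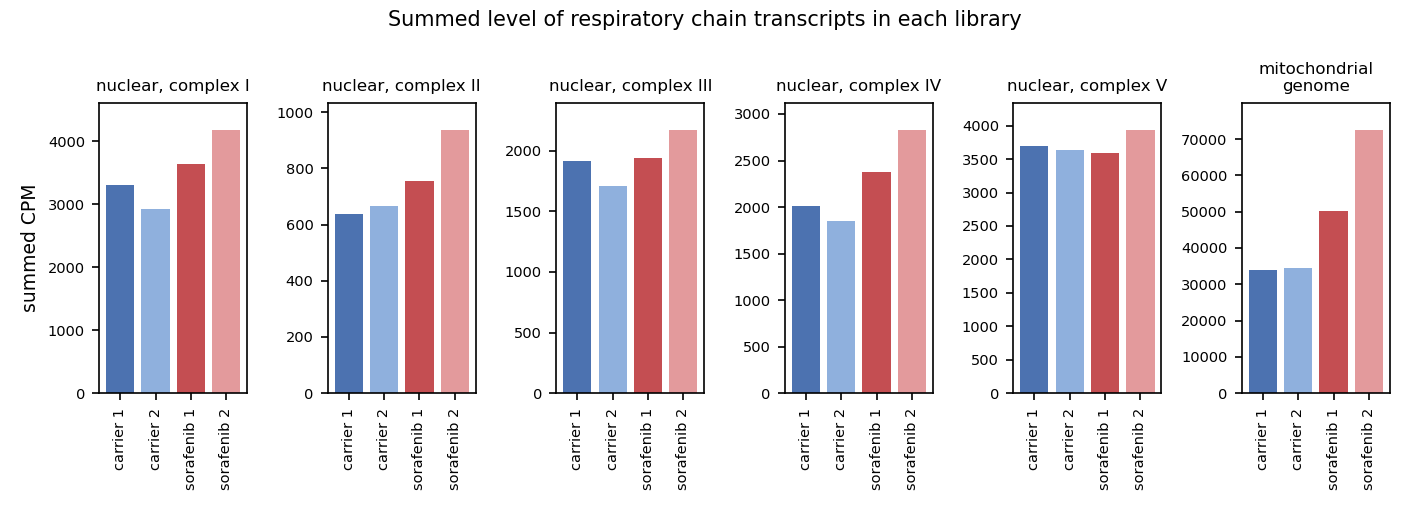
Summed CPM of the nuclear genes of each complex and of the 13 mitochondrially encoded genes in each of the 4 libraries; each bar is 1 library and every axis starts at 0. The sums of complexes I, II, III and IV and of the mitochondrial genome are higher in each sorafenib library than in any carrier library, and for complex V sorafenib replicate 1 is the lowest library.

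Complex I, the NADH dehydrogenase, summed to 3309 and 2929 CPM in the carrier libraries and to 3636 and 4187 CPM in the sorafenib libraries. Of its 36 genes, 34 had a log2 fold change above 0, against 32.2% of all tested genes. In 21 both sorafenib libraries were above both carrier libraries and in 1 below, against 17.5% and 41.3% of all tested genes. The median was 0.32, or 0.58 with TMM factors. It was 0.21 in sorafenib replicate 1 and 0.44 in replicate 2.

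Within complex I the redox core and the accessory subunits differed in their values. The 7 nuclear genes of the redox core carry the flavin and the iron-sulfur clusters in the matrix arm. Their median log2 fold change was 0.15. None of the 7 had both sorafenib libraries above both carrier libraries and 1 had both below, against 17.5% and 41.3% of all tested genes. For so few genes, none above is not far from 17.5%. The summed level of the 7 was 823 and 746 against 794 and 892 CPM. The 29 accessory genes had log2 fold changes from 0.001 to 0.89, with a median of 0.42. In 21 of them both sorafenib libraries were above both carrier libraries, against 17.5% of all tested genes, and 8 overlapped. The summed level of the 29 is given next. Their summed level was 2486 and 2182 against 2842 and 3295 CPM.

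Among the redox core genes, Ndufs1, the largest iron-sulfur subunit, was at 68.4 and 76.2 CPM in carrier and 66.6 and 72.6 CPM in sorafenib libraries. Ndufv1, which binds NADH and the flavin, was at 113 and 99.2 against 111 and 119.5 CPM. The groups overlapped for both genes. Their log2 fold changes were -0.05 and 0.12, and that of Ndufs1 turned to 0.20 with TMM factors. Ndufv2, Ndufs3, Ndufs7 and Ndufs8, also of the core, had log2 fold changes of 0.15 to 0.31, all with overlapping groups.

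The accessory gene with the highest fold change was Ndufa3 (ENSMUSG00000035674, chromosome 7, 3617373 to 3620327 on GRCm38, protein-coding), a small membrane-arm subunit. It was at 75.8 and 60.4 CPM in carrier and 108 and 148 CPM in sorafenib libraries. Both sorafenib values lay above both carrier values, with replicate 2 the highest. The log2 fold change was 0.89 (SE 0.25), the highest of the 88 genes, and its limma adjusted p was 0.24. Per kilobase of transcript its level was 132 CPM in carrier and 249 CPM in sorafenib tumors.

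The 10 Ndufb genes encode the distal part of the membrane arm. Their median log2 fold change was 0.48. In 8 of the 10 both sorafenib libraries were above both carrier libraries, against 17.5% of all tested genes. Ndufb10 was at 105 and 89.4 against 148 and 179 CPM, and its log2 fold change was 0.75 (SE 0.22) with a limma adjusted p of 0.24. Ndufb7 was at 93.9 and 85.5 against 129.6 and 149 CPM and Ndufb3 at 34.4 and 39.6 against 57.3 and 65.4 CPM. In these 3 genes the lower sorafenib library was clearly above the higher carrier library. Ndufb4 had a log2 fold change of 0.78, but its values of 18 and 9.24 against 18.9 and 28.0 CPM barely separated the groups, and 35.2% of the 75-base windows of its transcripts also occur in transcripts of other genes. Ndufb5 and Ndufb11 overlapped between the groups.

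The other 19 accessory genes had a median of 0.39. In 13 of them both sorafenib libraries were above both carrier libraries, against 17.5% of all tested genes. Ndufa6, a matrix-arm subunit of the LYR family, had the highest level per length in complex I, with 334 CPM per kilobase in carrier and 421 in sorafenib tumors. Ndufa8 was at 119.8 and 91.9 against 143 and 163 CPM (log2 fold change 0.54), with both sorafenib libraries above both carrier libraries. Ndufa10 was at 129 and 121 against 171 and 189.8 CPM (log2 fold change 0.53), Ndufa5 at 63.9 and 55.1 against 79.4 and 115 CPM (0.68) and Ndufv3 at 89.8 and 66.2 against 103 and 147 CPM (0.67). These 3 also separated the groups. Ndufab1, the mitochondrial acyl carrier protein, which serves complex I and fatty acid synthesis in the matrix, was at 37.8 and 33.6 against 43.5 and 56.0 CPM. The accessory gene with the lowest fold change was Ndufc1, with 58.0 and 48.3 against 51.6 and 54.3 CPM and overlapping groups.

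**Figure D3:**
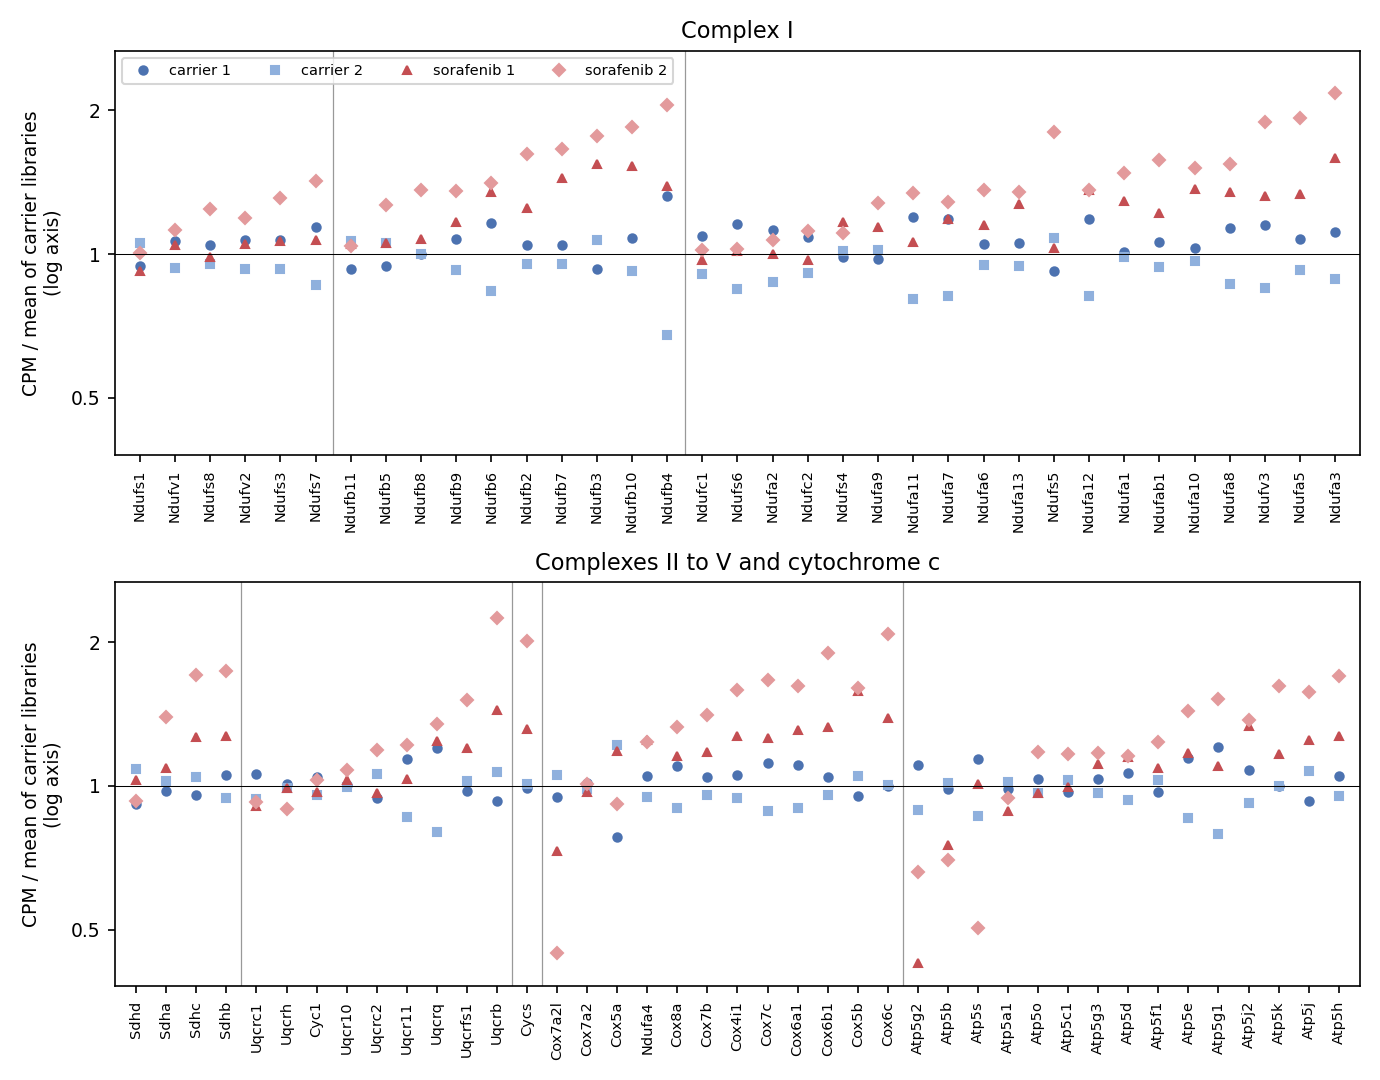
CPM of tested subunit genes in each library, divided by the mean of both carrier libraries, on a log axis; the upper panel shows complex I and the lower panel complexes II to V and cytochrome c, leaving out genes with a carrier mean below 5 CPM, with vertical lines between complexes or, in the upper panel, between the redox core, Ndufb and other accessory genes. Sorafenib replicate 2 is the highest library for most genes, and in Cox7a2l and Atp5b both sorafenib libraries lie below both carrier libraries.

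Complex II, succinate dehydrogenase, is the one complex whose subunits are all nuclear-encoded, and it also works in the citric acid cycle. Its 4 genes summed to 639 and 668 CPM in carrier and 755 and 938 CPM in sorafenib libraries. In 3 of the 4 both sorafenib libraries were above both carrier libraries, against 17.5% of all tested genes. The median log2 fold change of the 4 genes was 0.43, or 0.68 with TMM factors. It was 0.23 in sorafenib replicate 1 and 0.62 in replicate 2.

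Sdhb, the iron-sulfur subunit, was at 173 and 155 CPM in carrier and 208 and 285 CPM in sorafenib libraries. Sdha, the flavoprotein that oxidizes succinate, was at 207 and 218 against 232 and 296 CPM. Sdhc, a membrane anchor, was at 124 and 135 against 164 and 221 CPM. All 3 were highest in sorafenib replicate 2, with log2 fold changes of 0.57, 0.30 and 0.55 and standard errors of 0.22 to 0.24.

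Sdhd, the other membrane anchor, was at 135 and 159 CPM in carrier and 151 and 136 CPM in sorafenib libraries. The groups overlapped. Its log2 fold change was -0.03, and it was 0.22 with TMM factors. The ratio of Sdhb to Sdhd reads was 1.29 and 0.975 in carrier libraries and 1.38 and 2.09 in sorafenib libraries, a ratio that scaling factors cannot change. Per kilobase, Sdhb had the highest level of the complex, at 144 CPM in carrier and 216 CPM in sorafenib tumors.

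Complex III, the cytochrome bc1 complex, had a median log2 fold change of 0.10 over its 9 genes, or 0.35 with TMM factors. The median was 0.04 in sorafenib replicate 1 and 0.25 in replicate 2. Of the 9 genes, 4 lay above both carrier libraries in both sorafenib libraries and 2 below, against 17.5% and 41.3% of all tested genes. The summed level was 1914 and 1712 CPM in carrier and 1940 and 2175 CPM in sorafenib libraries.

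The redox subunits of complex III did not have like values. Uqcrfs1, the Rieske iron-sulfur protein, was at 212 and 223 CPM in carrier and 262 and 329.7 CPM in sorafenib libraries, and its log2 fold change was 0.43 (SE 0.22). Cyc1, cytochrome c1, was at 204 and 187 against 189.8 and 201 CPM, with overlapping groups and a log2 fold change of 0.00 (SE 0.20; 0.25 with TMM factors). The 95% interval of the Cyc1 difference ran from -0.48 to 0.48.

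Uqcrc1, a core protein, was at 286 and 253 CPM in carrier and 244 and 249.7 CPM in sorafenib libraries. Uqcrh, the acidic hinge protein, was at 205 and 201 against 201 and 182 CPM and had the highest level per kilobase of the complex in carrier tumors, 371 CPM. Both were lower in both sorafenib libraries by small margins, with log2 fold changes of -0.12 and -0.09 that became 0.13 and 0.17 with TMM factors. The ratio of Uqcrc1 to Uqcrfs1 was 1.35 and 1.13 in carrier and 0.933 and 0.757 in sorafenib libraries, so the groups separated on it. Uqcrb, a small subunit at the coenzyme Q site, was at 55.5 and 63.8 against 86.0 and 134 CPM. Its log2 fold change was 0.84 (SE 0.28, limma adjusted p = 0.247), and 29.1% of its 75-base windows also occur in transcripts of other genes.

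Cytochrome c itself, encoded by Cycs, carries electrons between complexes III and IV and also takes part in apoptosis. It was at 16.9 and 17.2 CPM in carrier and 22.4 and 34.1 CPM in sorafenib libraries, with no overlap. The log2 fold change was 0.67 (SE 0.31, limma adjusted p = 0.283). Of its 75-base windows, 26.1% also occur in transcripts of other genes, most of them pseudogenes.

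Complex IV, cytochrome c oxidase, summed to 2006 and 1849 CPM in carrier and 2377 and 2831 CPM in sorafenib libraries. Over its 15 tested genes the median log2 fold change was 0.31, or 0.57 with TMM factors, and it was 0.27 in sorafenib replicate 1 and 0.41 in replicate 2. The 11 genes of the common forms had a median of 0.51. In 9 of them both sorafenib libraries were above both carrier libraries, against 17.5% of all tested genes. Their summed level was 1936 and 1772 against 2323 and 2794 CPM.

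Cox4i1, which wraps the catalytic core and is a site of regulation by nucleotides, had the highest level per kilobase of the complex, at 495 CPM in carrier and 708 CPM in sorafenib tumors. Its level was 399 and 357 CPM in carrier and 481 and 602 CPM in sorafenib libraries, and the log2 fold change was 0.51 (SE 0.23). Cox6c was at 134.0 and 134.7 against 186 and 279 CPM, with 0.76 (SE 0.26) as its log2 fold change. In both genes sorafenib replicate 2 was the highest library and the groups did not overlap.

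Cox5b, a zinc-binding subunit, was at 81.6 and 90.2 CPM in carrier and 136 and 137 CPM in sorafenib libraries. Here the sorafenib libraries were alike, and the log2 fold change of 0.67 (SE 0.20) did not rest on one of them. Its limma adjusted p was 0.24. Cox6b1, which faces cytochrome c, was at 188 and 172 against 239 and 342 CPM, and Cox6a1, the liver form of subunit VIa, at 244 and 199 against 291 and 358 CPM, with log2 fold changes of 0.66 and 0.55. Both separated the groups. Ndufa4, named for complex I but shown in human cells to belong to complex IV, was at 258 and 234 against 307 and 304 CPM (0.31).

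Cox7a2l had the lowest log2 fold change of the 88 genes on log2(CPM + 1), with all libraries and without scaling factors. With a pseudocount of 0.5 or 0.1 in place of 1, that of Atp5g2 was -0.84 and -0.89, so the rank depends on the pseudocount. The log2 fold change of Atp5g2 was also lower than that of Cox7a2l once TMM, RLE or upper-quartile factors were applied, at -0.56, -0.54 and -0.61. Cox7a2l encodes the factor that joins complexes III and IV into supercomplexes, and C57BL/6 mice are known to carry a shortened allele of it. Cox7a2l (ENSMUSG00000024248, chromosome 17, 83501918 to 83517330 on GRCm38, protein-coding) was at 63.7 and 70.9 CPM in carrier and 49.2 and 30.1 CPM in sorafenib libraries. Both sorafenib libraries were below both carrier libraries, and replicate 2 was the lowest. The log2 fold change was -0.79 (SE 0.29, limma adjusted p = 0.258) and -0.54 with TMM factors. Of its 75-base windows, 13.4% also occur in transcripts of 1 pseudogene.

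Its relative Cox7a2, a subunit of the common complex IV, was at 154 and 149.8 CPM in carrier and 148 and 154 CPM in sorafenib libraries. Cox7a2l made up 29.0% (Wilson 95% interval 26.6% to 31.5%) and 31.8% (29.2% to 34.5%) of the reads of Cox7a1, Cox7a2 and Cox7a2l in carrier libraries. In sorafenib libraries its share was 24.7% (21.8% to 27.7%) and 16.2% (14.0% to 18.6%). These intervals cover counting error only. That of sorafenib replicate 1 overlaps that of carrier replicate 1, and that of sorafenib replicate 2 lies below all others.

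The tissue forms of complex IV were those known for liver. Cox4i1 held over 99.9% of the reads of Cox4i1 and Cox4i2 in each library. Cox6a2, the muscle form of subunit VIa, had 0, 1, 2 and 0 reads, against 1054 to 1878 reads of Cox6a1 and Cox6a2 together. Cox8b and Cox8c had 0 reads in every library beside 728 to 1077 reads of Cox8a, which allows a share of up to 0.279% to 0.412%. Cox7b2 also had 0 reads. Cox7a1, a heart and muscle form, was at 2.02 and 2.64 against 2.70 and 2.48 CPM, and Ndufa4l2, which hypoxia is known to induce, at 3.20 and 1.89 against 0.983 and 3.24 CPM. Neither separated the groups. Cox6b2, the testis form, had 6 and 6 reads in carrier and 2 and 2 reads in sorafenib libraries. It was the gene just inside the limit for testing, with 1.01 and 1.13 against 0.492 and 0.381 CPM. Only its carrier libraries reached 1 CPM, so the filter favored a lower value with sorafenib.

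Complex V was the complex with the smallest difference in its summed level, which was 3692 and 3629 CPM in carrier and 3598 and 3939 CPM in sorafenib libraries. Its 15 tested genes had a median log2 fold change of 0.20, or 0.46 with TMM factors, and 0.15 and 0.23 in sorafenib replicates 1 and 2. In 8 genes both sorafenib libraries were above both carrier libraries, and in 3 both were below, against 17.5% and 41.3% of all tested genes. The parts of the enzyme had unlike medians, 0.11 over 5 genes of the F1 head and central stalk, 0.19 over 3 genes of the c ring, 0.35 over 4 genes of the peripheral stalk and 0.45 over 2 small membrane subunits.

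Atp5b (ENSMUSG00000025393, chromosome 10, 128083273 to 128090391 on GRCm38, protein-coding) encodes the catalytic beta subunit of the F1 head. It was at 919.9 and 949 CPM in carrier and 703 and 654 CPM in sorafenib libraries. Both sorafenib libraries were below both carrier libraries by a margin larger than the distance within either group. The log2 fold change was -0.46 (SE 0.22, limma adjusted p = 0.298), and it was -0.21 with TMM factors.

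Its partner Atp5a1, the alpha subunit, was at 713 and 736 CPM in carrier and 641 and 682 CPM in sorafenib libraries, a log2 fold change of -0.13 that became 0.12 with TMM factors. Alpha and beta subunits stand in equal number in the head. Atp5b made up 56.3% of the reads of Atp5a1 and Atp5b in both carrier libraries (Wilson 95% intervals 55.4% to 57.3% and 55.3% to 57.3%), 52.3% (51.0% to 53.6%) in sorafenib replicate 1 and 49.0% (47.8% to 50.1%) in replicate 2. The ratio of Atp5b to Atp5a1 was 1.29 in both carrier libraries and 1.10 and 0.959 in sorafenib libraries. Against Atp5c1, the gamma subunit of the rotating stalk, it was 3.81 and 3.71 in carrier and 2.84 and 2.25 in sorafenib libraries. None of the 75-base windows of Atp5b and Atp5c1 occurs in a transcript of another gene, and library scaling cannot change these ratios.

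The other head and stalk genes were not lower. Atp5c1 was at 242 and 256 against 248 and 290.3 CPM, Atp5d, the delta subunit, at 255 and 223 against 274 and 275 CPM, and Atp5e, the epsilon subunit, at 190.3 and 143 against 195 and 239 CPM. The groups overlapped for Atp5c1 and separated for Atp5d and Atp5e. In the peripheral stalk, which holds the head still, Atp5h was at 141 and 128 against 171 and 229 CPM (log2 fold change 0.56) and Atp5j at 190.5 and 220.3 against 257 and 324 CPM (0.49). Both were highest in sorafenib replicate 2.

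The c ring that rotates in the membrane is made of 1 protein encoded by 3 genes. Atp5g3 held most of the reads, 85.6% to 89.4%, and had the highest level per kilobase of complex V, at 596 CPM in carrier and 679 CPM in sorafenib tumors. Atp5g1 was at 63.0 and 41.5 against 57.5 and 79.3 CPM, with overlapping groups. Atp5g2 was at 9.61 and 7.73 CPM in carrier and 3.69 and 5.72 CPM in sorafenib libraries, or 57 and 41 against 15 and 30 reads. Its share of the reads of the 3 genes was 1.86% (Wilson 95% interval 1.43% to 2.40%) and 1.66% (1.23% to 2.25%) in carrier libraries. In sorafenib libraries it was 0.684% (0.415% to 1.13%) and 0.972% (0.682% to 1.38%), with intervals that overlap between carrier replicate 2 and sorafenib replicate 2. Its log2 fold change was -0.78 (SE 0.38), and 35.8% of its windows also occur in transcripts of other genes.

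Atp5l, the g subunit, was the gene just outside the limit for testing, at 0.674 and 1.13 against 0.492 and 0.953 CPM. Of its 75-base windows 76.0% also occur in transcripts of 10 other genes, 9 of them pseudogenes, and how reads with several matches were counted is not given in the sources used here. Across the 94 genes, 55 shared no window with another gene and 16 shared at least 20%.

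**Figure D4:**
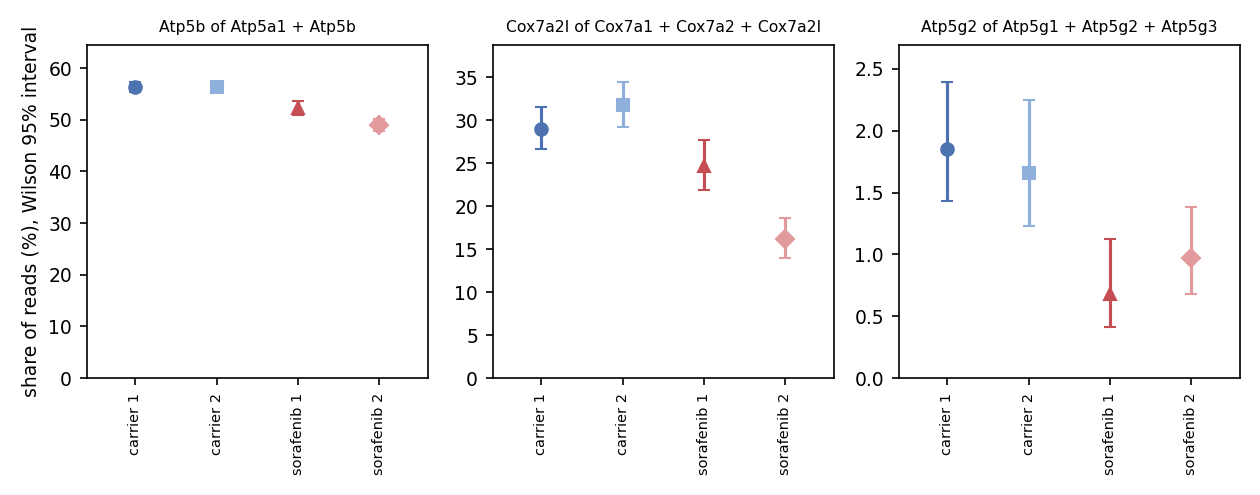
Share of reads of Atp5b among Atp5a1 and Atp5b, of Cox7a2l among Cox7a1, Cox7a2 and Cox7a2l, and of Atp5g2 among Atp5g1, Atp5g2 and Atp5g3, in percent for each library; bars are Wilson 95% intervals for counting error and every axis starts at 0. In all 3 panels both sorafenib libraries lie below both carrier libraries.

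The 8 assembly factors, Ndufaf1 to Ndufaf7 and Atp5sl, build complex I and are not part of the finished enzyme. Atp5sl is named for the ATP synthase, but its human counterpart is known as a factor for the distal membrane arm of complex I. Their median log2 fold change was 0.07, or 0.32 with TMM factors. In both sorafenib libraries 2 genes were above and 2 below both carrier libraries, against 17.5% and 41.3% of all tested genes. Atp5sl was at 38.3 and 30.9 CPM in carrier and 43.8 and 59.3 CPM in sorafenib libraries, and Ndufaf1 at 22.4 and 21.9 against 29.7 and 31.1 CPM. These were the 2 that lay higher. Ndufaf6, at 14.5 and 16.6 against 13.0 and 13.0 CPM, and Ndufaf7, at 13.0 and 12.8 against 12.5 and 10.1 CPM, were lower by margins of few reads.

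Other genes of the pathway were read from lists, in none of which limma called a gene. Their counts of genes with both sorafenib libraries above or below both carrier libraries stand beside 17.5% and 41.3% of all tested genes. A wider list of complex I assembly factors, 15 tested genes that include 7 of the above, had a median of -0.02, with 2 genes above and 2 below both carrier libraries. The lists for complexes II, III and IV had medians of -0.05 over 4 genes, 0.22 over 6 and -0.11 over 20. The 4 tested assembly factors and inhibitors of complex V were all below both carrier libraries in both sorafenib libraries, as were 41.3% of all tested genes, and their median was -0.46. One of them was Atpif1, the protein that blocks ATP hydrolysis by complex V, at 84.4 and 68.3 CPM in carrier and 49.9 and 15.2 CPM in sorafenib libraries (log2 fold change -1.42, SE 0.53, limma adjusted p = 0.258; -1.17 with TMM factors). Usmg5, a small complex V subunit outside the symbol pattern, was at 28.3 and 29.1 against 38.1 and 36.2 CPM. The other tested gene of that list, 2010107E04Rik, was at 125.9 and 102 against 123 and 105 CPM, with overlapping groups.

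The mitochondrially encoded subunits differed by more than most nuclear ones. The 13 genes summed to 34015 and 34523 CPM with carrier and to 50332 and 72616 CPM with sorafenib. Reads were listed for 7 of the 13 at testable levels, and the median log2 fold change of these 7 was 0.81. All 7 were above both carrier libraries in both sorafenib libraries, against 17.5% of all tested genes. The other 6, mt-Atp6, mt-Atp8, mt-Co2, mt-Co3, mt-Nd3 and mt-Nd4l, were listed at 0 or 1 read per library. mt-Nd2 of complex I was at 4034 and 4582 against 6981 and 14298 CPM, and mt-Co1, the catalytic subunit of complex IV, at 6617 and 5810 against 9369 and 13505 CPM. limma called none of the 7, with a smallest adjusted p of 0.258.

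Genes of the mitochondrial ribosome, which translates those 13 messengers, lay near the values of all tested genes. Of 75 tested genes with symbols of mitochondrial ribosomal proteins, 6 were above and 32 below both carrier libraries in both sorafenib libraries, against 17.5% and 41.3% of all tested genes. Their median log2 fold change was -0.23, against -0.26 for all tested genes, and 0.02 with TMM factors. Their summed level was 3052 and 2790 CPM in carrier and 2752 and 2479 CPM in sorafenib libraries.

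Among 9 other enzymes that feed electrons into the chain, 5 were above both carrier libraries and 1 was below, with a median of 0.43. Prodh, proline dehydrogenase, was at 92.4 and 50.2 CPM in carrier and 183 and 241 CPM in sorafenib libraries (log2 fold change 1.61). Suox, sulfite oxidase, which passes its electrons to cytochrome c, was at 24.8 and 28.7 against 45.7 and 80.1 CPM (1.15). Dhodh, of pyrimidine synthesis, was lower, at 17.0 and 17.0 against 14.0 and 7.24 CPM. Of the 17 genes of the citric acid cycle 6 were above and 2 below, with a median of 0.18. Of 11 genes of coenzyme Q synthesis and binding 4 were above and 3 below, with a median of -0.11. Coq10b, a coenzyme Q binding protein, was at 30.2 and 32.6 against 55.3 and 138 CPM, and Coq4 of the synthesis complex at 15.7 and 11.9 against 6.64 and 5.91 CPM.

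Of 15 tested genes that regulate mitochondrial gene expression, 11 had a log2 fold change below 0 and 4 above 0. In both sorafenib libraries 4 were above and 5 below both carrier libraries, against 17.5% and 41.3% of all tested genes, and the median was -0.19, or 0.06 with TMM factors. Nrf1, which encodes the factor of the first motif, was at 15.7 and 14.0 CPM in carrier and 13.5 and 8.58 CPM in sorafenib libraries. Gabpa, Esrra and Tfam had log2 fold changes of -0.15, -0.23 and -0.13 with overlapping groups, and all 3 were above 0 with TMM factors. Ppargc1a, a coactivator of these factors, was at 9.78 and 11.5 against 13.3 and 24.0 CPM, and its relative Ppargc1b at 1.69 and 1.51 against 2.21 and 8.39 CPM. Both lay above the carrier libraries, Ppargc1b mainly in replicate 2. Esrrg, an estrogen-related receptor, had 4 and 1 reads in carrier and 7 and 21 reads in sorafenib libraries. It reached 1 CPM in the sorafenib libraries only, so the filter favored its place among the 4 that lay above. Myc was at 70.6 and 78.1 CPM in carrier and 28.8 and 15.8 CPM in sorafenib libraries (log2 fold change -1.75, limma adjusted p = 0.24), and whether its reads include those of the transposon was not tested.

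Respiratory chain transcripts are short, which can matter for libraries that differ in RNA quality. The median transcript length was 963 bases in the 88 genes and 2992 bases in 12243 tested genes with a principal transcript. Across genes, which are not independent replicates, Spearman's rho of log2 fold change and length was -0.13 within the 88 genes and -0.03 within the 12243.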

How the data were processed

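Messenger RNA was measured in 2 carrier and 2 sorafenib libraries. Per the labels' protocols, stranded TruSeq libraries of polyadenylated RNA, made from 100 ng of total RNA each, were read with 75 cycles. Per the submitters' processing notes, STAR 2.6.1c, Subread 1.6.3, edgeR 3.22.5 and GRCm38 were used. What each tool did, whether counting used strand and how multiply matching reads were treated is not given in the sources used here, so overlapping, antisense and near-identical genes have uncertain values.

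The deposited values are CPM, reads per 1000000 counted by the authors, without scaling factors. Every value was a whole multiple of 1 read within 0.01, so whole reads were recovered for 100% of values. Totals were 5932939 and 5300806 (carrier) and 4067427 and 5246530 (sorafenib). A count of 0 allows up to 3 reads, 0.506 to 0.738 CPM.

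limma 3.58.1 (R 4.3.3) with a mean-variance trend tested log2(CPM + 1), two-sided, over 13149 genes with at least 1 CPM in 2 libraries, at a Benjamini-Hochberg adjusted p of 0.05. A fold change on this scale understates the change of low genes. edgeR 4.0.16, limma-voom and DESeq2 1.42.0 ran on the recovered reads. DESeq2 gave no adjusted p for 2040 genes. Other alternatives were TMM, RLE and upper-quartile factors, other pseudocounts and filters, no trend, a replicate block and leaving out each library. In simulated reads, 13149 genes per run, all genes in both groups had the same spread, a median over genes from the carrier pair. There limma called 446 of 500 genes changed 2-fold, 499 of 500 changed 4-fold and 46 of 64745 unchanged. The larger spread of the sorafenib pair was not simulated, so these counts do not give the power of the test on these data.

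Gene positions, transcript lengths (APPRIS principal) and windows of 75 bases shared with other genes came from GENCODE M21, which held all 94 members, and promoters from RefSeq. The named genes of each complex were the 2 lowest and 2 highest by fold change, the highest per kilobase, the core subunits and the tissue isoforms; of the other lists, the 2 with the smallest p in each direction. Other members could be named, and 1 member is counted but not reported by name here. The members, lists and rules were chosen with earlier results of these data known.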

Additional observations from a re-analysis of the deposited data

How the results depend on the processing

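Positive medians of each complex kept their sign under every alternative run, but their size depended on scaling. With TMM, RLE and upper-quartile factors, edgeR, limma-voom and DESeq2, in that order, the median log2 fold change was 0.54, 0.56, 0.48, 0.57, 0.56 and 0.59 for all 88 genes, 0.58, 0.59, 0.52, 0.60, 0.58 and 0.62 for complex I, and 0.35, 0.37, 0.30, 0.38, 0.35 and 0.40 for complex III. It was 0.57, 0.58, 0.51, 0.58, 0.57 and 0.60 for complex IV and 0.46, 0.47, 0.40, 0.46, 0.46 and 0.48 for complex V, and for complex II 0.72 with edgeR and 0.74 with DESeq2. These methods apply scaling factors, and the median of all tested genes rose with them to between -0.09 and -0.01. A filter of 5 CPM gave 0.44 for complex IV. Leaving out each library in turn gave 0.27 to 0.43 for complex IV and 0.14 to 0.24 for complex V. Genes with both sorafenib libraries below both carrier libraries numbered 4 with each of the 3 kinds of factor and 11 to 17 without 1 library, where fewer values have to separate.

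DESeq2 called 498 genes and 1 of the 88, and leaving out 1 library gave 0 to 5149 called genes and 0 to 27 of the 88. The counts were 5149 and 27 without sorafenib replicate 1, 398 and 0 without sorafenib replicate 2, and 0 and 0 without either carrier library. The log2 fold change of 13 of the 42 genes named here by rule turned its sign under some alternative. With TMM, RLE and upper-quartile factors, edgeR, limma-voom and DESeq2 it became 0.12, 0.14, 0.063, 0.13, 0.12 and 0.15 for Atp5a1, 0.24, 0.26, 0.18, 0.25, 0.24 and 0.27 for Cox7a2, 0.20, 0.21, 0.14, 0.21, 0.20 and 0.23 for Ndufs1, 0.22, 0.24, 0.16, 0.22, 0.22 and 0.24 for Sdhd, 0.13, 0.15, 0.072, 0.14, 0.13 and 0.16 for Uqcrc1, and 0.17, 0.18, 0.11, 0.17, 0.17 and 0.19 for Uqcrh. Ndufaf6 gave 0.015, 0.0021, 0.010 and 0.021 with RLE, edgeR, limma-voom and DESeq2, Ndufaf7 0.052, 0.068, 0.057, 0.061 and 0.074 with TMM, RLE, edgeR, limma-voom and DESeq2, and Ndufa4l2 0.072 and 0.10 with edgeR and DESeq2. Without 1 library the range was -0.021 to 0.25 for Cox7a1, -0.042 to 0.016 for Cox7a2, -0.064 to 0.065 for Cyc1, -0.81 to 0.28 for Ndufa4l2, -0.052 to 0.22 for Ndufaf2, -0.13 to 0.023 for Ndufs1, -0.020 to 0.32 for Ndufs8 and -0.15 to 0.091 for Sdhd.

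The replicate numbers of the labels are only shared numbers. Deviations of same-numbered libraries from their group means correlated at 0.15 across genes. With the replicate number as a block, limma called 0 genes, with a smallest adjusted p of 0.0839, and 3185 genes had an unadjusted p below 0.05, compared with 2529. Depth limits genes near 1 CPM, where 1 read is 0.169 to 0.246 CPM, as for Cox6b2 and Atp5l. limma called none of the 88. In simulated reads, where all genes had the same median spread of the carrier pair, it called 446 of 500 genes that were changed 2-fold. The larger spread of the sorafenib pair was not simulated, so this count does not give the power of the test on these data.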
